A study of Homo sapiens with 9 samples.

Results

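The arrays compared here come from LiSa-2 cells, a human liposarcoma line, that had been in the presence of hyaluronidase (HAase) for either 6 h or 24 h. The comparison asks which transcripts differ between a short and a long exposure to the enzyme, that is, which early changes had faded, which were still present and which appeared late. It takes 6 of the 9 arrays of the series: the 3 titled as HAase at 24 h against the 3 titled as HAase at 6 h. All 6 samples received bovine testicular HAase at 400 µg/mL and were grown on plates in DMEM/F12 with bovine serum and antibiotics. The remaining 3 arrays, cells given phosphate-buffered saline (PBS) and harvested at 24 h, are used only to give the level without the enzyme. No 6 h PBS sample is among those analysed here, so longer enzyme exposure and longer time in culture cannot be told apart. PBS at 24 h is not the level before treatment. A rise, dip or loss by 6 h is therefore only a difference from those PBS arrays. The treatment was a tissue preparation of the enzyme, and no inactivated enzyme was among the samples analysed here. Whether same-titled samples came from independent cultures is not stated in the labels. The p-values therefore measure the spread between these arrays alone, which may be technical.

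Hyaluronan is a long, unsulphated sugar polymer that is spun out at the plasma membrane and forms a hydrated coat around mesenchymal and tumour cells. Hyaluronidases cut it into shorter pieces, and cells sense the polymer through receptors such as CD44. In many cell types a change at the cell surface first raises immediate early genes, whose mRNAs are short-lived, then cytokine genes, and later genes for matrix, metabolism and division. The series title concerns TXNIP, the thioredoxin-interacting protein, which restrains glucose uptake. Liposarcoma cells can keep part of the fat-cell programme, such as lipid droplet proteins and adipokines.

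Each gene was represented by 1 probe set, the one with the highest mean of log2(signal + 16) over the 9 arrays, and its value is a linear signal in arbitrary units that was scaled to the same trimmed mean on every array. Fold changes were computed on log2(signal + 16), which understates the change of dim genes. By limma, 4567 of 13842 genes tested (33%) differed between 24 h and 6 h at an adjusted p under 0.05. Of these, 2731 were higher at 24 h (19.7% of the genes tested) and 1836 were lower (13.3%). Counts of list members below stand against these shares of all genes, and a count near them is no result about its list. The higher genes made up 59.8% of those called, and 49.2% when the arrays were set to equal medians, so the balance between rises and falls rests on the scaling. The median log2 difference of all genes was 0.05. Changes of 2-fold or more were fewer, 237 higher (1.71%) and 321 lower (2.32%). Against PBS, 42.4% of genes were called at 6 h (15% higher, 27.4% lower) and 40.3% at 24 h (17.5% higher, 22.8% lower). The values of the 3 arrays at 24 h did not overlap those of the 3 arrays at 6 h in 6359 genes (45.9%).

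**Figure D1:**
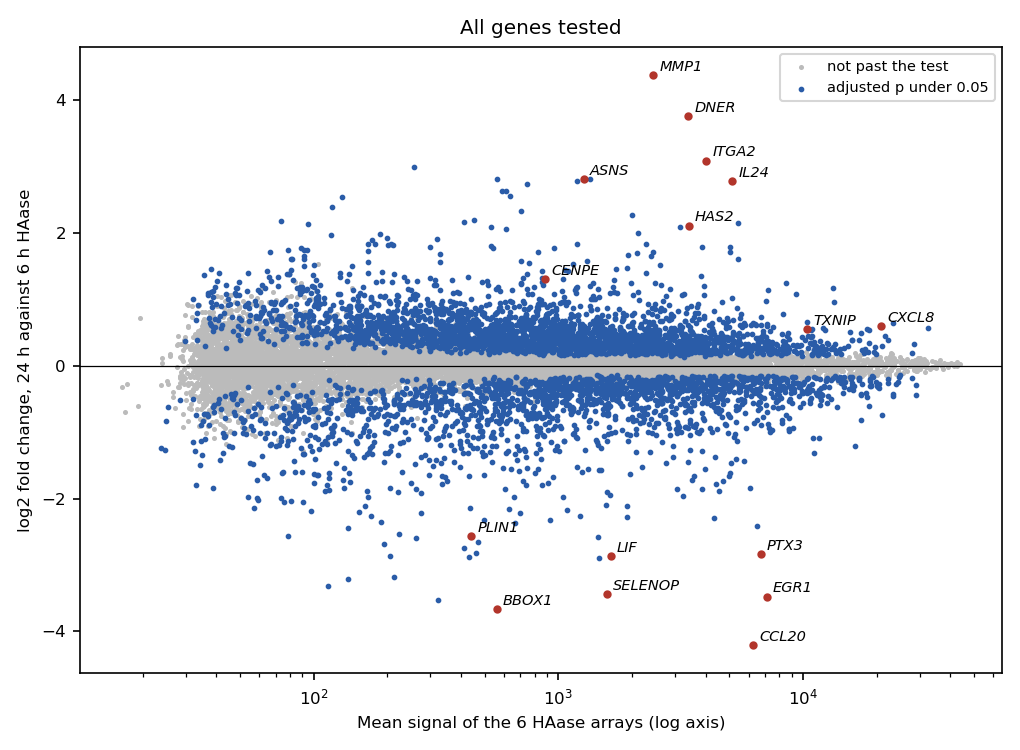
Log2 fold change at 24 h against 6 h HAase (vertical axis) plotted against the mean signal of the 6 HAase arrays (log axis) for the 13842 genes tested; blue points had a limma adjusted p under 0.05. MMP1 and DNER lie at the top with log2 fold changes of 4.37 and 3.76, and CCL20, BBOX1 and EGR1 at the bottom with -4.20, -3.67 and -3.48.

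Arrays of the same time correlated with r between 0.9891 and 0.9897 across genes, and arrays of different times between 0.9722 and 0.9736. Between 11964 and 13350 of the genes tested lay, on the 6 HAase arrays, above the brightest of 27 Bacillus subtilis control probe sets of the same array, a level that ranged from 34.2 to 65 over the 9 arrays. Where none of a group's 3 arrays exceeded that level, the group has only an upper bound, and a fold change against it is written as "at least". The difference between the probe sets near the 3' and 5' ends of GAPDH, a measure of RNA integrity, was -0.02 ± 0.05 on the log2 scale at 6 h and -0.11 ± 0.09 at 24 h (SD, n = 3 each), and that of ACTB was 1.37 ± 0.20 and 1.52 ± 0.12. Both pairs overlap within their spread. On the 6 h arrays the 14 tested markers of adipocytic and mesenchymal cells had a summed signal of 97042 to 99416, and on the 24 h arrays of 63950 to 76713. The 2 endothelial markers tested summed to between 367 and 441 on all 6 arrays, and neither passed the test.

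The 15 largest rises and the 15 largest falls, counted over genes that passed the test with no overlap between the arrays of both times, were of different kinds. The rises included secreted proteases and protease inhibitors (MMP1, PI3, SERPINB7), the collagen receptor subunit ITGA2, the cytokine IL24, the chemokine CCL5, 2 hair keratins of chromosome 17 (KRT33A and KRT33B, so alike in sequence that their probe sets may share signal) and asparagine synthetase (ASNS). The falls included the chemokine CCL20, the transcription factor EGR1, the cytokine LIF, the hyaluronan-binding pentraxin PTX3 and fat-cell genes (ADIPOQ, GPD1). The highest limma adjusted p among these 30 genes was 2.09e-04.

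**Figure D2:**
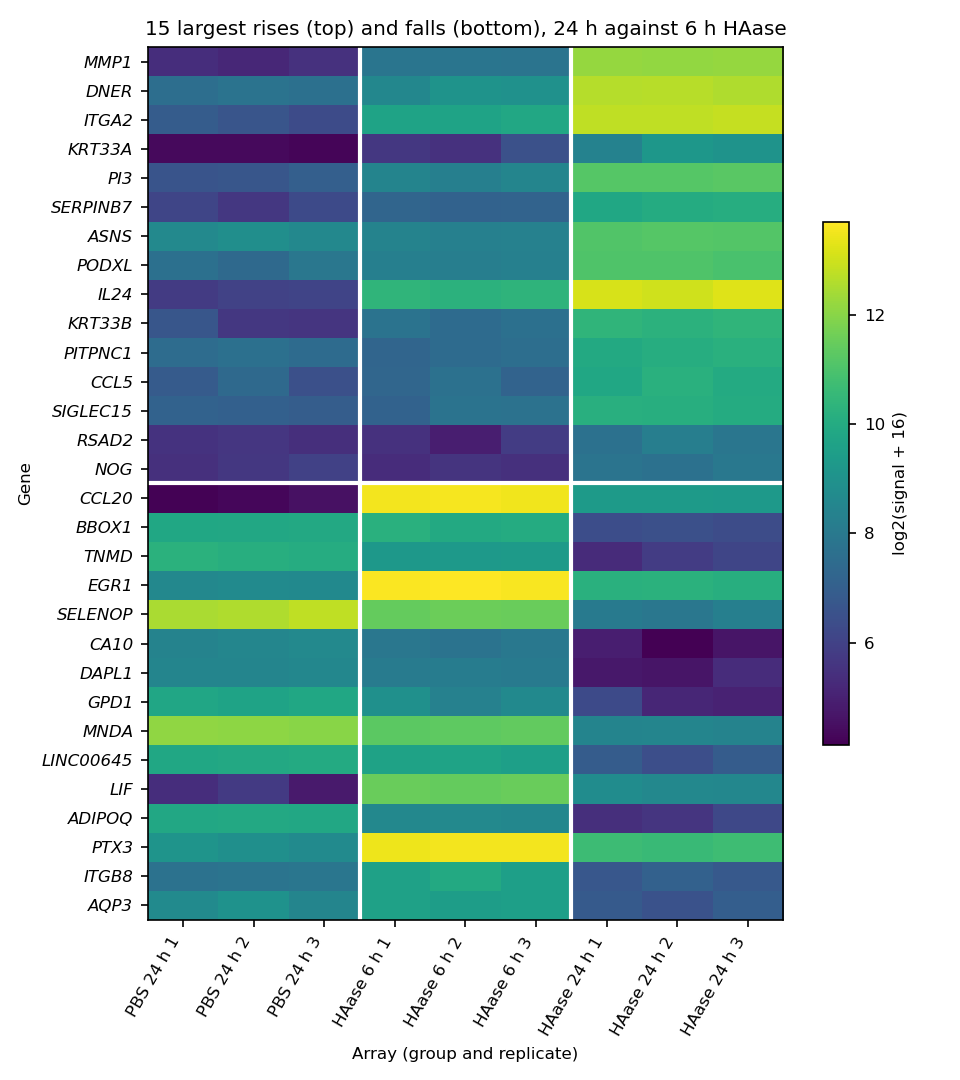
Log2(signal + 16) on each of the 9 arrays (columns, 3 per group) for the 15 genes that rose most from 6 h to 24 h HAase (top block) and the 15 that fell most (bottom block). MMP1, IL24 and ITGA2 are brighter at 6 h than in PBS and brighter again at 24 h. ASNS and NOG are brighter only at 24 h, and CCL20, EGR1, LIF and PTX3 are brightest at 6 h.

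Immediate early transcription factors were lower at 24 h than at 6 h. Of 25 members tested, 20 fell, none rose (0 also at an unadjusted limma p under 0.05) and 5 did not pass the test, where 13.3% of all genes fell. The median log2 difference of the list was -0.52, against 0.05 for all genes. Genes of this class are read out within minutes to hours of a stimulus through serum response factor, AP-1 and related factors. The promoter of EGR1 is shown because it carries the motif for which this class is known. In these 250 bases upstream of the gene start (RefSeq, GRCh38.p14, chr5:138465229-138465478, plus strand), capitals mark 2 CArG boxes, the binding motif of serum response factor.
EGR1: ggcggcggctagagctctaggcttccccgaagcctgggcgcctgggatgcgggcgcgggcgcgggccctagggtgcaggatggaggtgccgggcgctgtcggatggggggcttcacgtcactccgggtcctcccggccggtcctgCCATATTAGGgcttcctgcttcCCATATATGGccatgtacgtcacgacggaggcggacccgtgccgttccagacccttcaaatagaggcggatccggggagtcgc
The CArG box occurred in 2 of the 20 list promoters held in the RefSeq table and in 1.1% of the 11166 promoters of tested genes. The 100 largest rises and the 100 largest falls were taken among genes past the test with a promoter in that table. The box was found in 5 of these falls and in 1 of these rises. The search covered 300 bases around the start, on both strands, and a match is a description of the letters, not evidence of a bound factor.

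EGR1 itself read 12985, 13457 and 12742 on the 3 arrays at 6 h and 1164, 1199 and 1113 at 24 h. The groups were far apart, and the 24 h arrays still lay above the PBS arrays, which read 367, 408 and 389.6. The fall was 11.1-fold (log2 fold change -3.48 ± 0.06 SE, limma adjusted p = 1.06e-07), while the log2 difference from PBS was 5.02 at 6 h and 1.54 at 24 h. EGR3, a relative with the same DNA-binding zinc fingers, read 397, 303 and 343 at 6 h and 35.8, 46.1 and 38.9 at 24 h. It had come back to near its control probe sets, with 2 of the 3 arrays at 24 h above them, and its log2 fold change was -2.69 (adjusted p = 3.01e-06). FOS, the partner of JUN in AP-1, fell from 235, 257 and 308 to 15.8, 86.8 and 96.1 (adjusted p = 0.0134), with 2 of 3 arrays above control at 24 h and array 1 far below the other two. The groups of FOS do not overlap, but the 24 h arrays scatter widely.

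JUNB fell 2.05-fold, from 786 ± 74.3 to 378 ± 61.4 (SD, n = 3 each). JUN fell 1.34-fold, from 16698 ± 1105 to 12473 ± 220. BHLHE40, a repressor that also acts in the circadian clock, went from 10306, 10870 and 10683 to 5845, 5965 and 5759.7, 1.81-fold lower. MYC, a driver of growth genes, read 7918, 7866 and 7682 at 6 h and 5240.1, 5225 and 5222 at 24 h, a narrow spread at both times, and fell 1.49-fold (adjusted p = 5.61e-05). At 24 h MYC was still above PBS (log2 difference 0.77, after 1.35 at 6 h). FOSB, at 210.1 ± 24.3 and 88.2 ± 23.3, passed narrowly (adjusted p = 0.0480), and its call was lost in 10 of the 16 alternative settings. FOSL1, EGR4, NR4A1, KLF4 and SRF did not pass the test, with log2 differences from -0.85 (NR4A1) to 0.27 (EGR4).

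Genes that report on or restrain the ERK kinase pathway did not move one way. Of 21 members, 5 rose and 7 fell. The phosphatase genes DUSP1 and DUSP6, which switch off MAP kinases, fell 2.01-fold and 1.62-fold, and the inhibitor SPRY1 fell 1.85-fold. DUSP1 read 4080, 4338 and 4350.1 at 6 h and 2036, 2069 and 2242 at 24 h, while PBS arrays read 698, 811 and 665. Cyclin D1 (CCND1), which couples growth signals to entry into the cell cycle, went the other way. Its signal was 68.4, 59.4 and 40.7 in PBS, 499, 439 and 439.8 at 6 h and 1268, 1264 and 1251 at 24 h, an ordered series with no overlap, and the 24 h level was 2.69-fold that at 6 h (adjusted p = 1.77e-04). The ETS factor gene ETV5 also rose, from 684 ± 36.8 to 1423 ± 58.4 (2.06-fold, adjusted p = 2.59e-05). Its relative ETV4 had a log2 difference of 0.71, not past the test (adjusted p = 0.0847).

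The list of NF-kappaB subunits and feedback inhibitors held 10 genes that fell and 2 that rose (1 without replicate 1 or 3 of 6 h or replicate 2 or 3 of 24 h) among 20 tested, with a median log2 difference of -0.40. NF-kappaB is held in the cytoplasm by inhibitor proteins whose own genes it activates. The promoter of NFKBIA, which encodes the inhibitor IkappaBalpha, and those of the cytokine genes IL6 and CXCL8 are shown because they hold kappaB motifs (GGANTTTCC, searched on both strands), yet the genes went different ways between 6 h and 24 h. Capitals mark kappaB matches, and in CXCL8 also an AP-1 match (TGANTCA); the match nearest the gene start in NFKBIA lies on the opposite strand and is printed as read on the strand of the gene. Each is the 250 bases upstream of the start in GRCh38.p14, 5' to 3': NFKBIA at chr14:35404750-35404999 (minus strand), IL6 at chr7:22726950-22727199 (plus) and CXCL8 at chr4:73740319-73740568 (plus).
NFKBIA: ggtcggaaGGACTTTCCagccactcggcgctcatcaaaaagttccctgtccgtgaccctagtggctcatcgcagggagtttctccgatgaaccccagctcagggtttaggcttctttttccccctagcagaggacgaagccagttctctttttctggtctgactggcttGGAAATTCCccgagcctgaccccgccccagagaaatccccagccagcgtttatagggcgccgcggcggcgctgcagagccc
IL6: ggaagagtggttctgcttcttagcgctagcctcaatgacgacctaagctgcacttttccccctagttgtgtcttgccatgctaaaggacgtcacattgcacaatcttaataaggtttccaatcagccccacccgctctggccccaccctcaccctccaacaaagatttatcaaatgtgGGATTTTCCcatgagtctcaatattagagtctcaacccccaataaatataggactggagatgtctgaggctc
CXCL8: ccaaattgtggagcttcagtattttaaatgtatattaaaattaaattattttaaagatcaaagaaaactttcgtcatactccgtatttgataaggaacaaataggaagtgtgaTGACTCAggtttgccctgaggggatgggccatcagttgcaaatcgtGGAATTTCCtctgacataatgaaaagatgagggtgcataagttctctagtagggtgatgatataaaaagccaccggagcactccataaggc
In the 300-base windows, the kappaB motif occurred in 6 of the 18 NF-kappaB list promoters in the table (33.3%), and in 1.67% of all promoters of tested genes. It occurred in 4 of the 100 largest falls and in none of the 100 largest rises, both taken among genes with a promoter in the table. The AP-1 motif was in 4.9% of all promoters, in 9 of the 100 largest rises and in 6 of the 100 largest falls. Further motifs were counted. The E-box (CACGTG) was in 9.9% of all promoters, in 10 of these rises and in 1 of these falls. CRE (TGACGTCA) was in 3.13% of all, in 4 rises and 0 falls. The SREBP motif (TCACNCCAC) was in 1.06% of all, in 1 rise and 1 fall. The CARE motif (TGATGNAAT) was in 0.582% of all, in 1 rise and 2 falls. It was in 0 of 26 promoters of the ATF4 list described below.

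Among the NF-kappaB genes, NFKBIA read 4814, 4910.4 and 5064 at 6 h and 2883, 2903 and 2733 at 24 h. It fell 1.73-fold (adjusted p = 3.92e-05), though the mean over all of its probe sets did not pass (adjusted p = 0.0804). The subunit genes RELB and NFKB1 fell 2.13-fold and 1.72-fold. RELB was at 97.0, 67.6 and 70.8 in PBS, 671, 635 and 620.3 at 6 h and 280.5, 321 and 277 at 24 h, so it remained above PBS. TNFAIP3, which encodes the ubiquitin-editing inhibitor A20, read 2226, 2137 and 2098 at 6 h and 1175, 1022 and 940.3 at 24 h. The superoxide dismutase gene SOD2 fell 1.90-fold, from 4102, 4092 and 4041 to 2047, 2229 and 2144, where PBS arrays read 2014, 1999 and 2083. Its 24 h arrays overlapped the PBS arrays. BCL2A1, an anti-apoptotic relative of BCL2, rose instead, from 593, 731 and 610.1 to 1465, 1342 and 1447 (2.18-fold, adjusted p = 2.62e-04), and its PBS arrays all lay at or below the control probe sets.

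The cytokine genes split into those that receded, those that stayed high and those that came late. CCL20, which attracts dendritic cells and lymphocytes through CCR6, showed the largest fall of any gene tested by the model's fold change. Its signal was 2.13, 3.38 and 7.12 in PBS, all below the control probe sets, then 11920.2, 12229.6 and 11541 at 6 h and 641, 635 and 615 at 24 h. That is a fall of 18.4-fold between the times (log2 fold change -4.20 ± 0.09 SE, adjusted p = 2.09e-07), yet the 24 h level was still at least 9.95-fold above PBS. LIF, a cytokine of the IL6 family that keeps stem cells undifferentiated, went from 2958, 2804 and 2913 to 421, 369.6 and 360.3, 7.29-fold lower. Its PBS arrays were also below control, and 24 h was at least 6.14-fold above them. IL6 read 2373, 2142 and 2196 at 6 h and 804, 682 and 745 at 24 h, with PBS at 78.8, 63.8 and 66.4. It fell 2.97-fold between the times (adjusted p = 1.47e-05). IL1RN, the natural antagonist of interleukin-1, fell 3.74-fold, from 2499.7, 2397 and 2593 to 645, 624 and 698, and IL11 fell 2.61-fold.

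CXCL8, the neutrophil chemokine also called interleukin-8, did not recede. Its arrays read 16119.7, 16947 and 16593 at 6 h and 25817, 26399 and 23080.4 at 24 h, all far above PBS (113, 97.6 and 91.0). The later level was 1.51-fold the earlier (adjusted p = 0.00116), and another CXCL8 probe set gave a log2 difference of 1.35. CXCL2 and CXCL3, of the same neutrophil-attracting group, rose 2.26-fold and 2.08-fold; they are near-identical copies, so their probe sets may share signal. IL1B rose 2.12-fold, from 5986 ± 108 to 12685 ± 8.88 (SD, n = 3 each). IL24, a secreted cytokine of the IL10 family, read 39.2, 48.4 and 52.7 in PBS, 1327, 1242 and 1314 at 6 h and 8972, 8363 and 9665 at 24 h. The 3 groups do not overlap, and the second step was 6.87-fold (log2 fold change 2.78 ± 0.09 SE, adjusted p = 1.46e-06). IL33, an alarmin released from damaged cells, rose from 154, 178 and 125 to 765, 682 and 809 (4.59-fold). CCL5, a chemokine for T cells and monocytes, read 100.3, 152 and 72.3 in PBS, 138, 192 and 129 at 6 h and 902, 1174 and 990 at 24 h, so on this probe set the PBS and 6 h arrays overlap (6.17-fold above 6 h, adjusted p = 1.53e-04). The other 2 CCL5 probe sets were already higher at 6 h than in PBS, by 0.81 and 1.33 on the log2 scale (limma adjusted p over probe sets = 0.0192 and 0.0412), and all 3 rose from 6 h to 24 h.

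CXCL12, a constitutive chemokine of stromal cells, belongs to neither early nor late rises. It read 3545, 3727 and 3823 in PBS, 2686, 2376 and 2465 at 6 h and 385, 407 and 420.3 at 24 h. The 24 h level was 6.01-fold lower than that at 6 h (adjusted p = 5.37e-07). Counted by list, 5 chemokines rose and 3 fell of 12 tested, and 3 interleukins and related factors rose and 7 fell of 14. CXCL10, one of the 3 chemokines counted as lower, was above control on 1 of 3 arrays at 24 h, and its call was lost in 4 alternative settings. In the prostaglandin list 6 fell of 15 and none rose (1 at an unadjusted p under 0.05, and 1 passed without replicate 3 of 24 h). PTGS2, the inducible cyclooxygenase, read 7683, 7543 and 7154 at 6 h and 2577, 3004 and 2543 at 24 h, 2.75-fold lower, and stayed above PBS at 281, 397 and 324. The prostaglandin E2 receptor gene PTGER4 had 3267 ± 91.5 in PBS and 3249 ± 27.7 at 6 h, and was then 2.02-fold lower at 1598 ± 39.2 (SD, n = 3 each).

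**Figure D3:**
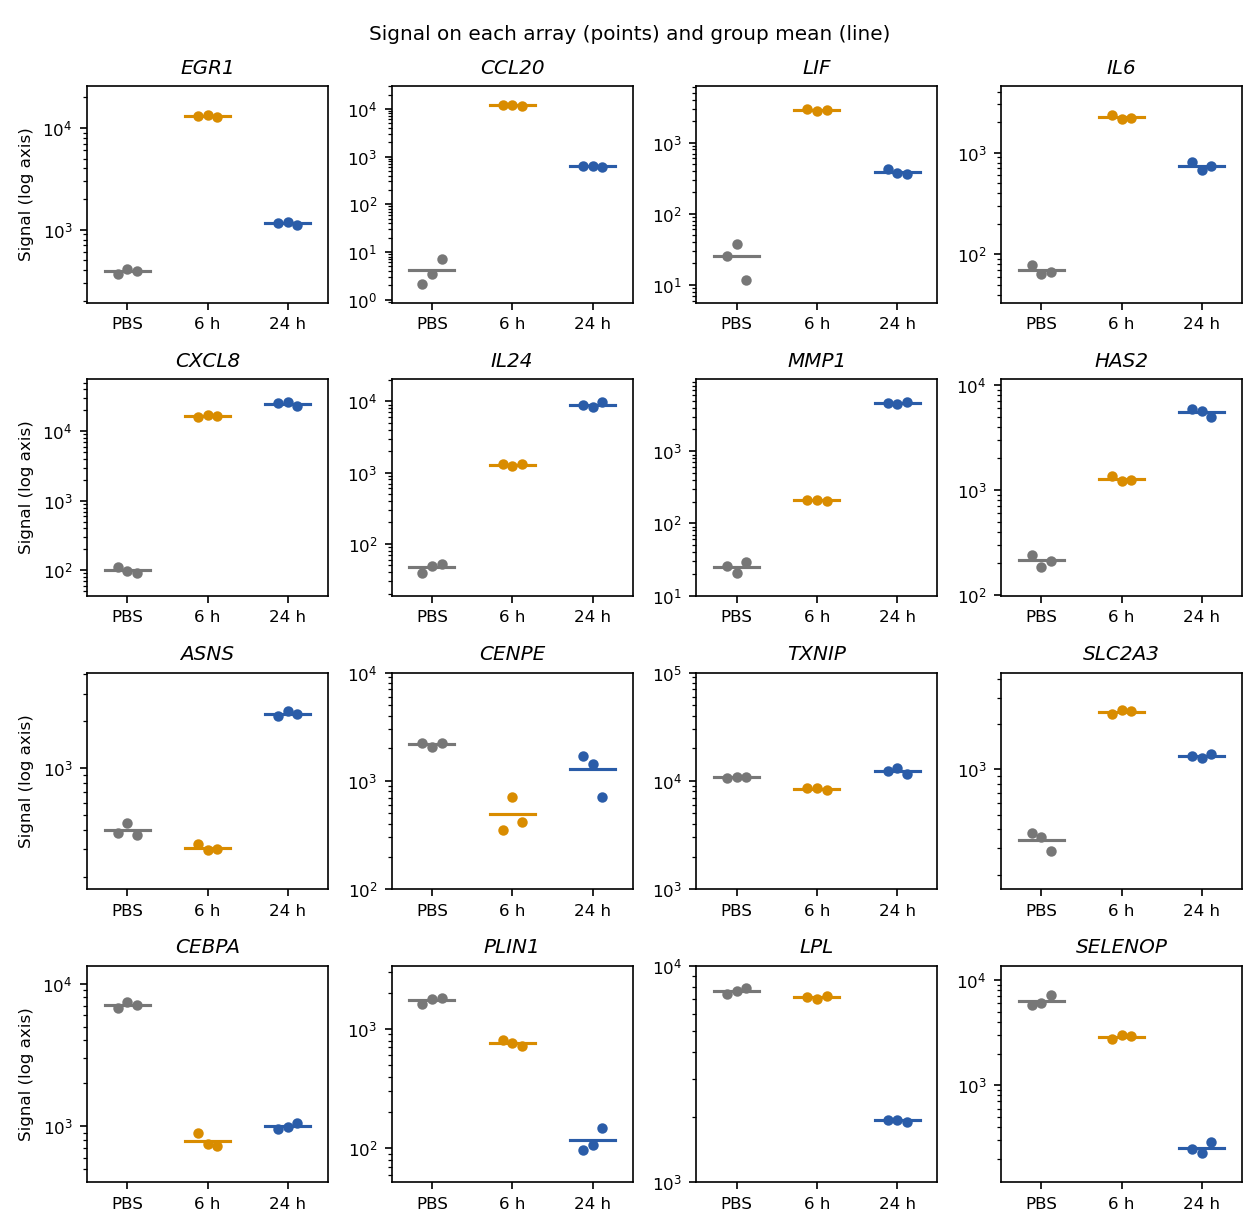
Signal on each array (points) and group mean (line) on a log axis for 16 genes, in PBS at 24 h, HAase at 6 h and HAase at 24 h (3 arrays each). EGR1, CCL20, LIF and IL6 are highest at 6 h. IL24, MMP1 and HAS2 are higher at 6 h than in PBS and higher again at 24 h. From 6 h to 24 h ASNS rises and LPL falls. The mean of CENPE is lowest at 6 h, and its arrays at 6 h and 24 h overlap.

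Growth factor ligands and receptors changed in both directions, with 4 rises and 5 falls among 16 tested (25% and 31.2%, against 19.7% and 13.3% of all genes). The EGF-receptor ligand EREG fell 3.48-fold, from 1141, 1149 and 1173 to 287, 299.9 and 380.2. The receptor gene MET, which binds hepatocyte growth factor, did not differ past the test between PBS (979, 959.6 and 798) and 6 h (931, 1025 and 1043), and then rose 2.78-fold to 3097, 2469 and 2875 at 24 h. PDGFRB, a receptor of mesenchymal cells, fell 2.74-fold, from 471, 566 and 630.3 at 6 h to 181, 174 and 222 at 24 h. PBS arrays read 251, 243 and 230.2, and 24 h did not differ from them past the test (adjusted p = 0.0795). In the TGF-beta list 5 rose and 9 fell of 24. GDF15, a stress-responsive member of that family, fell 3.59-fold but was still above PBS, with signals of 329.5, 431 and 394 in PBS, 9286, 9458 and 9672 at 6 h and 2582, 2526 and 2783 at 24 h. NOG, encoding the BMP antagonist noggin, was below control on all PBS and 6 h arrays and read 211, 193 and 230.1 at 24 h, at least 4.12-fold higher (adjusted p = 1.40e-05).

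Proteases that cut matrix rose further in several cases. Of 22 matrix metalloproteinases, ADAMTS proteases and their inhibitors tested, 8 rose and 7 fell. MMP1, the interstitial collagenase, had the largest rise of all genes tested. It read 25.3, 20.8 and 29.0 in PBS, 212, 214 and 206 at 6 h and 4683, 4574 and 4733 at 24 h, tight within each group, a rise of 20.6-fold from 6 h to 24 h (log2 fold change 4.37 ± 0.07 SE, adjusted p = 1.06e-07). MMP3, stromelysin-1, which also activates MMP1, is on chromosome 11 like MMP1. Its arrays read 7949, 8419 and 8231 at 6 h and 18666, 19696 and 16978 at 24 h, 2.24-fold higher, with PBS at 563, 410.1 and 423. On the log2 scale, the difference of MMP3 from PBS was 4.11 at 6 h and the further rise 1.17, where the further rise of MMP1 was 4.37. All PBS arrays of MMP1 lay below the control probe sets. The size of its difference from PBS at 6 h (2.47 by the model) is therefore uncertain. The gelatinase gene MMP9 rose 5.04-fold, from 196, 249 and 226 to 1227, 1223 and 1114, and ADAMTS6 2.97-fold. ADAMTS9, an aggrecan- and versican-cutting protease, fell 3.32-fold, from 547 ± 91.5 to 153 ± 13.7 (SD, n = 3 each). Of the inhibitors, TIMP1 rose 1.49-fold and TIMP3 fell 2.14-fold.

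In the plasminogen and coagulation list 7 of 15 rose and 1 fell (2 without replicate 1 of 6 h). Thrombomodulin (THBD), which turns thrombin to an anticoagulant, read 1839.7, 2060.1 and 2074 at 6 h and 8797, 9129.9 and 8649 at 24 h, 4.43-fold higher (adjusted p = 1.12e-06). The urokinase receptor gene PLAUR rose 2.03-fold, from 3483, 3170.2 and 3527 to 6756, 7189.7 and 6744, and had already been above PBS at 6 h (log2 difference 2.58). SERPINB7, a serine protease inhibitor, read 135, 125 and 127 at 6 h and 906, 1021 and 1069.7 at 24 h. PI3, encoding elafin, an elastase inhibitor of epithelia, rose 7.03-fold, from 335, 292 and 343 to 2294, 2341 and 2460. The groups of both do not overlap. KRT33A, one of the hair keratins, was above control on 1 of 3 arrays at 6 h and read 312, 576 and 518 at 24 h, and KRT33B read 205, 159.9 and 189 at 6 h and 1349, 1247 and 1333 at 24 h.

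Integrins, the receptors for matrix, tended upwards: 8 of 16 rose and 2 fell. ITGA2, the alpha2 subunit of a collagen receptor, read 105, 84.5 and 62.3 in PBS, 799, 803 and 912 at 6 h and 7090.4, 7151 and 7415 at 24 h. It rose 8.49-fold between the times (adjusted p = 6.99e-06). ITGA3 and ITGA6, laminin receptor subunits, rose 1.81-fold and 1.79-fold. ITGB8, which pairs with alphaV to activate latent TGF-beta, did the reverse. It was above PBS at 6 h and then fell 7.06-fold, from 766, 966 and 722 to 90.8, 121 and 94.2, lower than PBS at 195, 210.2 and 223.

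Genes that make, cut or bind hyaluronan, the substrate of the enzyme, moved apart: 7 rose and 6 fell of 23 (30.4% and 26.1%, against 19.7% and 13.3% of all genes). HAS2, the main synthase of mesenchymal cells, read 241, 186 and 213 in PBS, 1357, 1223 and 1233 at 6 h and 5966, 5688 and 4971 at 24 h. The 3 groups do not overlap, and the difference between 6 h and 24 h was 4.31-fold (adjusted p = 8.29e-06). CEMIP, a hyaluronan-depolymerising protein, rose nearly in step, from 1069, 1247 and 1263 to 5109.9, 5286 and 4897 (4.24-fold). CD44, the main receptor, had 14362, 15039.8 and 14914 at 6 h and 19439.8, 19670.3 and 18523 at 24 h, 1.30-fold higher (adjusted p = 6.80e-04). HAS3, another synthase, stayed near the control probe sets, with 52.2, 78.9 and 60.4 at 6 h and 57.1, 66.7 and 131 at 24 h, and did not pass the test (log2 difference 0.28, adjusted p = 0.461). PTX3, a pentraxin that cross-links hyaluronan in matrix, read 528, 456 and 405 in PBS, 11435, 11922 and 12056 at 6 h and 1631, 1569.8 and 1696 at 24 h, a fall of 7.17-fold (adjusted p = 1.43e-06). TNFAIP6, whose product TSG-6 transfers heavy chains onto hyaluronan, fell 1.52-fold, and TLR4, an innate receptor, fell 2.48-fold.

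The list of collagens and their enzymes had 10 rises and 8 falls among 30 tested. Fibrillar collagen genes fell: COL1A1 3.0-fold, COL1A2 3.20-fold and COL3A1 2.5-fold. COL3A1 read 15872, 15978 and 15626 at 6 h, slightly below PBS at 17717, 17986 and 18593, and 6211, 6581 and 6189.9 at 24 h. COL1A2 read 1493, 1373 and 1487 and 387, 438 and 511, so for both genes the 24 h arrays stand well below all others. COL14A1 was below control on all arrays at 24 h, at least 1.95-fold lower than at 6 h. LOX, which cross-links collagen, rose 1.59-fold, from 1069 ± 39.8 to 1711 ± 81.9 (mean ± SD of 3 arrays). Also higher was P4HA3, a collagen prolyl hydroxylase, which was below control on all arrays at 6 h and at least 1.65-fold higher at 24 h; its call was lost in 6 alternative settings. When the mean of all probe sets of a gene was taken, 5 members of the collagen list rose instead of 10.

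Of 29 matrix glycoproteins and proteoglycans 14 fell and 4 rose (2 without replicate 2 of 24 h). EFEMP1 (fibulin-3) went from 7516, 7429.6 and 7783 to 2392, 2357 and 2403, 3.16-fold lower, and lumican (LUM) fell 1.95-fold. Thrombospondin-1 (THBS1) read 3037, 3187 and 2749 at 6 h and 929.7, 908 and 1012 at 24 h, 3.11-fold lower, and PBS arrays lay at the level of 6 h (2998, 3336 and 2943). In the list of YAP-TEAD and SRF targets 7 fell and 3 rose of 17, although its median was slightly positive (0.07). The contractile genes ACTA2 (smooth-muscle actin) and MYL9 (myosin light chain) fell 3.94-fold and 2.40-fold. ACTA2 read 1075, 1049 and 1066 at 6 h and 230.3, 262 and 284 at 24 h. NT5E, the ecto-5'-nucleotidase CD73, rose 4.83-fold, from 716, 646 and 657 to 3167, 3251 and 3529.5.

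**Figure D4:**
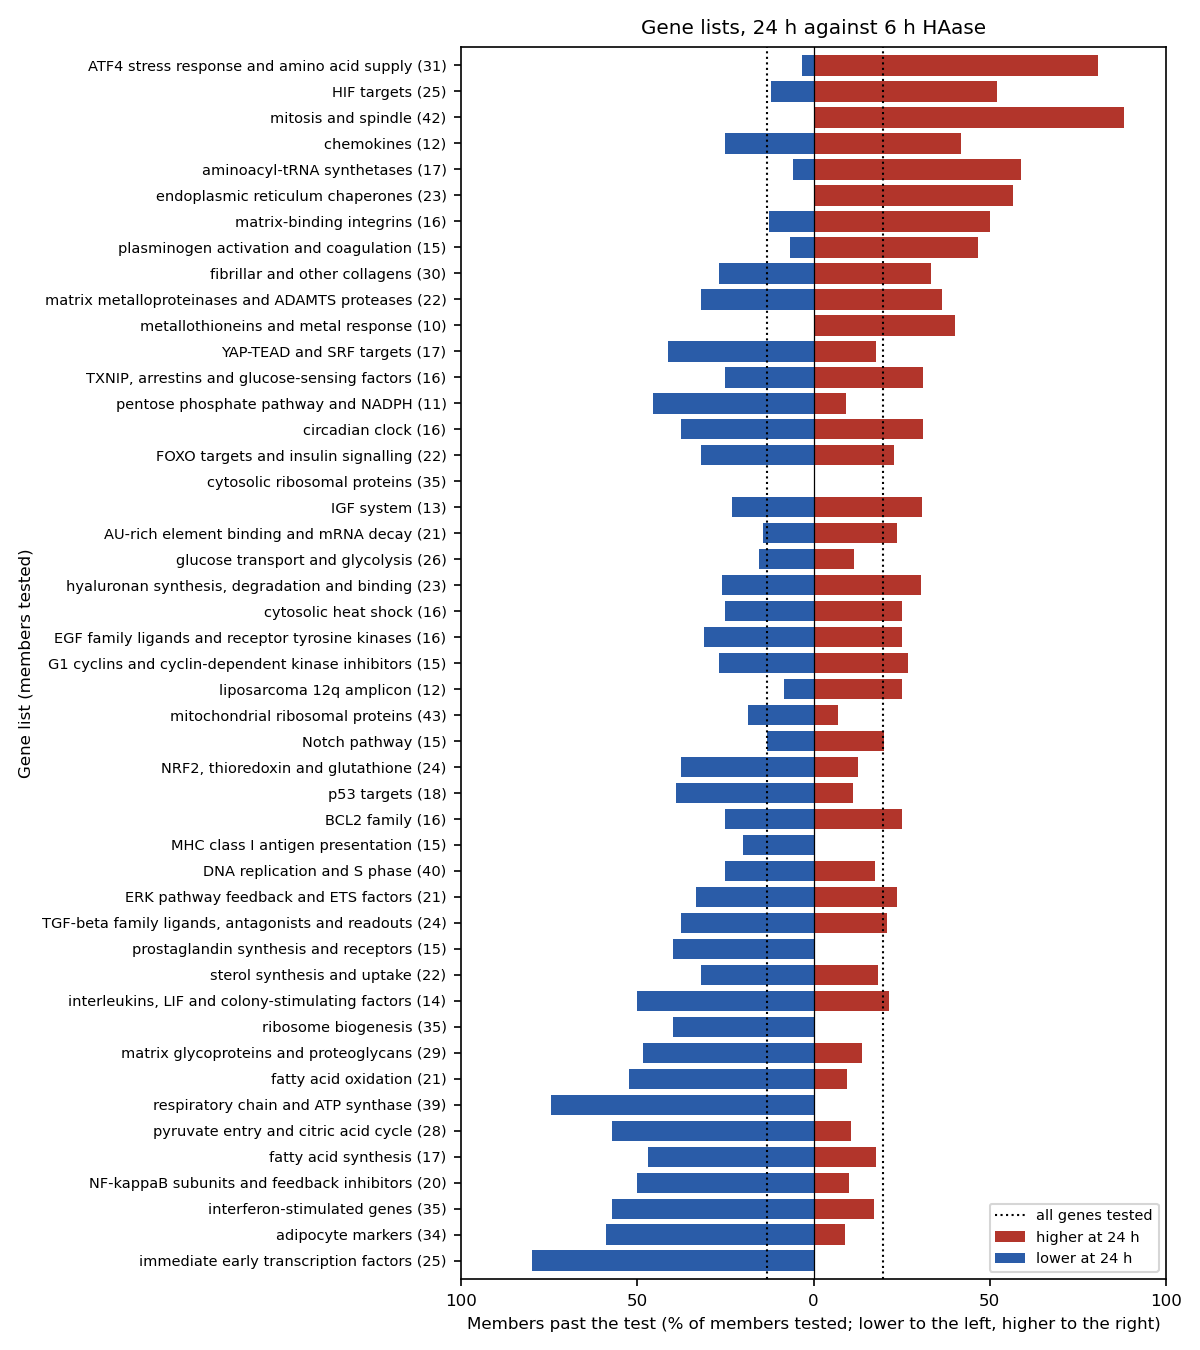
Share of tested members of each gene list that were higher (red, to the right) or lower (blue, to the left) at 24 h than at 6 h HAase, ordered by the median log2 difference; dotted lines mark the shares among all genes tested, 19.7% and 13.3%. Mitosis and ATF4 genes reach 88.1% and 80.6% higher, and immediate early factors and the respiratory chain 80% and 74.4% lower. No cytosolic ribosomal protein gene is on either side.

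Genes of the amino acid stress programme rose after 6 h. Of 31 genes in the list of the ATF4 response and amino acid supply, 25 rose and 1 fell, with a median log2 difference of 0.61; against PBS the median was 0.08 at 6 h and 0.71 at 24 h. Members had gone both ways by 6 h, with 12 higher and 8 lower than PBS (38.7% and 25.8%, against 15% and 27.4% of all genes). ATF4 is a transcription factor that is translated more when amino acids run short or proteins misfold. ASNS, asparagine synthetase, read 379.7, 443 and 370.4 in PBS, 322, 295 and 303 at 6 h and 2171, 2323 and 2229 at 24 h. It was slightly below PBS at 6 h and 6.99-fold above that at 24 h (log2 fold change 2.81 ± 0.08 SE, adjusted p = 6.51e-07). PSAT1, of serine synthesis, was below PBS at 6 h and rose 3.43-fold from 6 h to 24 h. It read 4052, 4043 and 4007 in PBS, 2219, 2234 and 2320.3 at 6 h and 7729, 7632 and 8021 at 24 h. SLC7A5, a large neutral amino acid transporter, read 828, 807 and 878 at 6 h and 3403, 3304 and 3454 at 24 h, 3.99-fold higher. VLDLR, a lipoprotein receptor that ATF4 activates, rose 3.79-fold, from 60.7, 73.7 and 88.3 to 303, 359 and 310.3.

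Further members moved by smaller amounts. ATF4 itself, already above PBS at 6 h (log2 difference 0.35), rose 1.48-fold, its target TRIB3 2.09-fold, the serine synthesis gene PHGDH 1.97-fold and the amino acid transporter gene SLC38A1 2.89-fold. CHAC1, which degrades glutathione, passed (adjusted p = 0.0448), but its call was lost in 10 of the 16 alternative settings. Aminoacyl-tRNA synthetases, which charge tRNAs with amino acids, showed 10 rises and 1 fall among 17 tested (no fall without replicate 3 of 6 h or replicate 2 of 24 h). EPRS1 rose 2.12-fold, from 2063, 2141 and 2081 to 4491, 4701 and 4187, and AARS1 1.73-fold, from 2686, 2621 and 2644 to 4388, 4929.9 and 4482. Neither pair of groups overlaps, and both genes had been below PBS at 6 h (log2 differences -0.36 and -0.39).

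In the list of endoplasmic reticulum chaperones 13 of 23 rose and none fell (1 at an unadjusted p under 0.05). The sizes were moderate: HYOU1, a chaperone of the lumen, rose 1.5-fold, and EDEM1, which hands misfolded proteins to degradation, 1.38-fold. XBP1, the transcription factor of that response, rose 1.41-fold, but not in the mean of its probe sets (adjusted p = 0.367). Among HIF targets, the genes that respond to low oxygen, 13 of 25 rose and 3 fell. DDIT4, an inhibitor of the growth kinase mTORC1, rose 2.07-fold, from 1680.4, 1750.4 and 1927 to 3695, 3568 and 3847. It is also a member of the ATF4 list. VEGFA, the endothelial growth factor, rose 1.46-fold. HIF1A, the factor itself, was among the 3 falls. With the mean of all probe sets, 7 HIF targets rose instead of 13. Metallothioneins, which bind zinc and copper, were already high at 6 h: 4 of 10 members rose further, MT2A from 25243 ± 1215 to 31676 ± 2157 (1.25-fold), and none fell (0 also at an unadjusted p under 0.05). The metallothionein genes are near-identical copies, so their probe sets may share signal.

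Genes of mitosis were higher at 24 h than at 6 h in 37 of 42 members tested, and none was lower (0 also at an unadjusted p under 0.05). The background share of genes higher was 19.7%. The median log2 difference was 0.46, and against PBS it was -0.77 at 6 h and -0.33 at 24 h. At 24 h, 24 of the 42 members were lower than PBS (57.1%, against 22.8% of all genes) and 1 was higher (2.38%, against 17.5%). HMMR, a spindle protein that also binds hyaluronan, was among the members that differed most between the times. It read 11039, 11479.7 and 11372 in PBS, 4536, 4638 and 4287 at 6 h and 9134, 11318 and 9252 at 24 h. Its 24 h arrays overlap the PBS arrays, which does not describe the list as a whole. The 6 h arrays do not overlap with either other group, and the difference between the times was 2.19-fold (adjusted p = 5.96e-05). CDC25C, the phosphatase that starts mitosis, read 437, 488 and 556 and 930, 953 and 999, 1.92-fold higher. The Aurora kinase gene AURKA rose 1.65-fold, CCNB2 1.59-fold and CCNB1, encoding the main mitotic cyclin, 1.18-fold; CCNB1 did not pass as the mean of its probe sets (adjusted p = 0.111). CDK1, the kinase those cyclins activate, did not pass the test (log2 difference 0.00).

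CENPE, a kinetochore motor, had the largest fitted difference of the list, but its arrays overlap, with 353, 716 and 421 at 6 h and 1691, 1422 and 711 at 24 h. Its call was lost when replicate 1 or 3 of 6 h or replicate 1 or 2 of 24 h was left out (adjusted p up to 0.073). KIF20B had the same scatter, with 779.8, 1129 and 803 and 2474, 1944 and 1204, and lost its call in 6 settings. Leaving out each array in turn, between 32 and 36 members of the mitosis list rose. The DNA replication and S phase list behaved otherwise: 7 rose (17.5%) and 10 fell (25%) of 40. The rises numbered 4 without replicate 2 of 6 h or replicate 2 or 3 of 24 h, and 4 with equal array medians. CDC6, which loads the replicative helicase, fell 1.30-fold and MCM10 1.28-fold, while E2F7, a repressor of S phase genes, rose 1.61-fold, from 3933, 3964 and 3946 to 6270, 6759 and 6040.3. CDKN1C, encoding the cell cycle inhibitor p57, was far below PBS at both times. It read 4445 ± 67.3 in PBS, 529 ± 8.14 at 6 h and 820.1 ± 52.3 at 24 h (SD, n = 3 each).

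Fat-cell genes fell further after 6 h. Of 34 adipocyte markers tested, 20 fell and 3 rose (1 without replicate 2 or 3 of 24 h), and the median log2 difference was -0.46; against PBS it was -0.42 at 6 h and -1.05 at 24 h. In whole cultures, fewer cells of a type and less RNA per cell cannot be told apart. PLIN1, which coats lipid droplets, read 1623, 1798 and 1825 in PBS, 804, 769 and 725 at 6 h and 96.3, 107 and 149 at 24 h, 5.93-fold lower than at 6 h (adjusted p = 1.03e-05). ADIPOQ, the hormone adiponectin, went from 374, 379.9 and 359.7 to 26.8, 32.4 and 57.0, with only 1 of 3 arrays at 24 h above control, so the size of its fall (7.27-fold by the model) is uncertain. GPD1, which makes glycerol phosphate for triglycerides, was below control on all arrays at 24 h and at least 6.71-fold lower than its 478, 308 and 396 at 6 h. Lipoprotein lipase (LPL) did not pass the test at 6 h against PBS, with 7415, 7687 and 7899 in PBS and 7209.8, 7055 and 7265 at 6 h, and then read 1941, 1949 and 1908, 3.69-fold lower (adjusted p = 5.02e-07).

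The transcription factors of the lineage did not go together. PPARG, the main regulator, fell 2.02-fold, from 4437, 3893 and 3936 to 1991, 2035 and 2015. CEBPD, an early factor of fat-cell formation, was above PBS at 6 h and below it at 24 h. It read 1492, 1471 and 1336 in PBS, 3139, 3058 and 3153 at 6 h and 724, 709 and 699.9 at 24 h. CEBPA, by contrast, was already far below PBS at 6 h. It read 6722, 7424 and 7121 in PBS, 903, 752 and 726 at 6 h and 961, 989 and 1057 at 24 h. The small rise of CEBPA between the times (log2 difference 0.34, adjusted p = 0.0229) lost its call in 6 settings. FABP4, a fatty acid carrier, fell 1.23-fold, a call lost without replicate 1 or 2 of 6 h (adjusted p up to 0.0545). That probe set is among the brightest here (31931 ± 881 at 6 h), and another FABP4 probe set, of mean signal 1881, fell by 2.15 on the log2 scale (limma adjusted p over probe sets = 1.15e-04). ACSL1, which activates fatty acids, fell 3.30-fold.

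Other genes among the largest falls differed in how far they were already below PBS at 6 h. SELENOP, the selenium transport protein, read 5846, 6015 and 7189 in PBS, 2750, 3019 and 2941 at 6 h and 247, 226 and 291 at 24 h, 10.8-fold lower between the times. BBOX1, the last enzyme of carnitine synthesis, read 898, 913 and 941 in PBS and 1161, 971 and 1020.4 at 6 h, and was 12.7-fold lower at 24 h with 67.1, 70.9 and 65.3. TNMD, a membrane protein of tendon and fat, read 583, 605 and 628 at 6 h and 23.7, 41.0 and 52.8 at 24 h, and 2 of its 3 arrays at 24 h were above control. MNDA, an interferon-inducible nuclear protein known from myeloid cells, fell 7.43-fold, from 2486, 2590 and 2695 to 335, 342 and 327. CA10 and DAPL1 were below control on all arrays at 24 h, at least 3.94-fold and 4.61-fold lower. AQP3, a glycerol and water channel, was above PBS at 6 h and then fell 6.72-fold, from 773, 691 and 728 to 99.6, 77.8 and 110.1, below its PBS arrays (403, 499 and 347). Its other 2 probe sets, of mean signal 92.4 and 56.9, had log2 differences between the times of -0.23 and -0.98. Neither passed (limma adjusted p over probe sets = 0.545 and 0.255), nor did they at 6 h against PBS (0.192 and 0.227).

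In the lists of lipid enzymes and of mitochondrial oxidation more genes were lower than higher at 24 h. In fatty acid synthesis 8 fell and 3 rose of 17, and 5 fell with the mean of all probe sets. SCD, which desaturates fatty acids, fell 3.43-fold, from 6372, 6992 and 7139.8 to 1867, 1981 and 2088 (adjusted p = 2.90e-06). GPAM, which adds the first fatty acid to glycerol phosphate, lay below PBS at 6 h and above it at 24 h. It read 1658, 1718 and 1717 in PBS, 867, 910.1 and 902 at 6 h and 1986, 1939 and 2109.7 at 24 h. Of 22 sterol genes 7 fell and 4 rose. ABCA1, which exports cholesterol, rose 3.56-fold, from 817, 901 and 1292 to 3602, 2973 and 4164, and IDI1 of the mevalonate pathway fell 1.92-fold. In fatty acid oxidation 11 fell and 2 rose of 21, with ACADL 3.74-fold and DECR1 1.85-fold lower.

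The respiratory chain and ATP synthase list had 29 falls and no rise (0 also at an unadjusted p under 0.05) among 39 members, against 13.3% of all genes lower, but each fall was small. The members' log2 differences ran from -0.55 (UQCRC2) to -0.07, with a median of -0.25. UQCRC2, a core subunit of complex III, read 8019.5, 7777 and 7917 at 6 h and 5268, 5257 and 5626 at 24 h. NDUFA9 of complex I read 5599, 5420.1 and 5181 and 3635, 3911 and 4243, and COX7B of complex IV fell 1.34-fold. The catalytic ATP synthase subunit gene ATP5F1B fell 1.29-fold. In the citric acid cycle and pyruvate entry list 16 fell and 3 rose of 28. Pyruvate carboxylase (PC) fell 2.63-fold, from 504, 483 and 524 to 172, 185 and 187. PDK4, a kinase that closes pyruvate dehydrogenase, rose 2.42-fold from 107, 114 and 93.9 to 285, 274 and 267. Its arrays at both times lay below PBS (579, 599.9 and 596). With the mean of all probe sets, 19 members of the respiratory list and 9 of the citric acid cycle list fell. Leaving out each array in turn, 23 to 27 and 14 to 15 members fell.

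Of 26 genes of glucose uptake and glycolysis tested, 3 rose (11.5%) and 4 fell (15.4%), where 19.7% and 13.3% of all genes did. SLC2A3, a high-affinity glucose transporter, receded from 2323, 2469.6 and 2450.4 to 1226, 1198 and 1262 (1.95-fold lower, adjusted p = 2.21e-04) and stayed above PBS at 376, 354 and 285. SLC2A1, the basal transporter, did not pass, with 438, 416 and 406 at 6 h and 354, 361 and 397 at 24 h (log2 difference -0.17, adjusted p = 0.230). HK2, the inducible hexokinase, read 16572, 17113 and 16483 and 11285, 10797 and 10434, 1.54-fold lower, but its call was lost on leaving out replicate 2 of 6 h or replicate 2 or 3 of 24 h (adjusted p 0.0534 to 0.0578). ENO2, an enolase isoform, rose 2.0-fold, from 899, 957 and 837 to 1742, 1687 and 2019.

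TXNIP itself read 10597, 10871 and 10929.6 in PBS, 8547, 8579 and 8193 at 6 h and 12375, 13103 and 11623 at 24 h. All 6 h arrays lay below all others, and the rise from 6 h to 24 h was 1.46-fold (log2 fold change 0.55 ± 0.06 SE, adjusted p = 2.69e-04). Its paralogue ARRDC4 changed by 0.20 on the log2 scale (adjusted p = 0.0153), a call lost with equal array medians and without replicate 3 of 6 h, and ARRDC3 fell 1.75-fold. ZFP36, which binds AU-rich elements and speeds mRNA decay, was lower by 0.32 on the log2 scale (adjusted p = 0.0441), a call lost in 9 of the 16 alternative settings, including each array left out except replicate 1 of 6 h. Its arrays read 2308, 2898 and 2319.7 at 6 h and 2094, 2013 and 1887 at 24 h. ZFP36L1, of the same family, fell 1.48-fold. In that list as a whole 5 rose (23.8%) and 3 fell (14.3%) of 21. The rises numbered 3 without replicate 2 or 3 of 6 h or replicate 2 of 24 h, 3 with equal array medians and 1 with the mean of all probe sets.

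Antioxidant genes fell more often than they rose, 9 against 3 of 24. Catalase (CAT) fell 1.95-fold, from 9919, 9632 and 10112 to 5388, 5010.3 and 4816, and the plasma glutathione peroxidase gene GPX3 2.02-fold. SLC7A11, the cystine importer, rose 1.93-fold, from 3451, 3163 and 2881 to 6141, 6556 and 5698. In the pentose phosphate and NADPH list 5 fell and 1 rose of 11, although its median was positive (0.06). TKT, transketolase, fell 1.48-fold. Neither PGD nor ME1, both counted as falls, passed as the mean of all probe sets (adjusted p = 0.983 and 0.956). Another ME1 probe set also fell (log2 difference -0.77), while no other PGD probe set passed.

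Interferon-stimulated genes mostly fell, 20 of 35 (57.1%, against 13.3% of all genes), and 6 rose (17.1%, against 19.7%). The median log2 difference was -0.45. These genes are switched on by type I interferons and by related innate signals. IFITM1, which blocks virus entry, read 1866, 1648 and 1855 at 6 h and 345, 466 and 353 at 24 h, 4.50-fold lower. GBP1, a guanylate-binding protein, was raised at 6 h and then fell below PBS, with 2428, 2458 and 2494, 5497, 4822 and 5188 and 1461, 1147 and 1366 in PBS, at 6 h and at 24 h. MX1 had 1 of 3 arrays above control at 24 h and read 407, 215 and 335 and 49.3, 14.7 and 112. OAS1, IFI27 and BST2 fell 2.57-fold, 3.41-fold and 3.47-fold, BST2 with 1 of 3 arrays above control at 24 h. RSAD2, encoding viperin, was the exception in size: it was above control on 1 of 3 arrays at 6 h and read 194, 285 and 222 at 24 h. ISG20 and IFIT2 also rose, 2.61-fold and 2.08-fold, ISG20 with 1 of 3 arrays above control at 6 h. In antigen presentation by MHC class I 3 fell of 15 (20%, against 13.3% of all genes) and none rose (0 also at an unadjusted p under 0.05). PSMB9, an immunoproteasome subunit, was 1.45-fold lower.

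None of 35 cytosolic ribosomal protein genes tested passed in either direction by limma (0 also at an unadjusted p under 0.05), with log2 differences from -0.07 (RPLP2) to 0.09 (RPS21). Ribosome biogenesis factors had 14 falls among 35 and no rise (0 also at an unadjusted p under 0.05). WDR43, a nucleolar processing factor, fell 1.40-fold and LYAR 1.36-fold. Both had been above PBS at 6 h (log2 differences 0.66 and 0.81). Mitochondrial ribosomal protein genes had 3 rises and 8 falls of 43 (6.98% and 18.6%, against 19.7% and 13.3% of all genes). The falls numbered 4 without replicate 2 or 3 of 6 h, 5 without replicate 2 of 24 h and 2 with the mean of all probe sets. Of the Notch list 3 rose and 2 fell of 15 (20% and 13.3%), near the shares of all genes (19.7% and 13.3%). DNER, a transmembrane protein with EGF repeats that can act as a Notch ligand, had the next largest rise after MMP1. It read 174, 202 and 185 in PBS, 364, 519 and 489 at 6 h and 6326, 6616 and 6024 at 24 h, 13.5-fold higher than at 6 h (adjusted p = 1.46e-06), while JAG1, a Notch ligand, fell 1.93-fold. HMGA2, a chromatin protein of the 12q region amplified in many liposarcomas, rose 2.24-fold, from 749.7, 732 and 692 to 1658, 1705 and 1565, with PBS at 43.6, 49.2 and 60.3. MDM2 and CDK4 of the same region did not pass the test.

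The circadian genes changed both ways, 5 higher and 6 lower of 16 (31.2% and 37.5%, against 19.7% and 13.3% of all genes). The number higher was 2 with equal array medians and 2 or 3 on leaving out any of the 6 arrays. BHLHE41 fell 2.07-fold and PER2 1.75-fold, while CIART rose 1.96-fold, from 233, 237 and 239 to 517, 421 and 509. The fall of BHLHE41 did not pass as the mean of its probe sets (adjusted p = 0.0901). BMAL1 fell 1.56-fold. The 6 h and 24 h groups are named by length of exposure, and the sample titles give no clock time of harvest. A part of clock time in these values was not tested. Of p53 targets 7 fell and 2 rose of 18 (1 rose without replicate 2 or 3 of 6 h or replicate 2 of 24 h), and PLK2 fell 2.31-fold, from 1379.8 ± 26.3 to 591 ± 65.8 (SD, n = 3 each). The FOXO and insulin list had 5 rises and 7 falls of 22, with 4 falls without replicate 2 of 6 h or of 24 h. CCNG2, a cyclin that FOXO factors activate, read 703, 905 and 863 at 6 h. At 24 h it read 1979.7, 2065 and 1839, at the level of PBS (1902, 1963 and 2120.5). Of 16 heat shock genes 4 rose and 4 fell (25% each). The rises numbered 1 without replicate 1 of 6 h or replicate 2 of 24 h, 2 without replicate 2 of 6 h or replicate 3 of 24 h, and 1 with equal array medians. Among the falls was the small chaperone CRYAB, which was 3.32-fold lower, from 7508, 6839 and 7458 to 2012, 2271 and 2265. The IGF system had 4 rises and 3 falls of 13 (30.8% and 23.1%). The BCL2 family had 4 each way of 16 (25%), where 19.7% of all genes rose and 13.3% fell.

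Markers of other cell types were low. Of 5 leukocyte markers tested, CD163 and CSF1R rose, CD163 from 168, 172 and 109.6 to 529, 504 and 491 (3.21-fold), and their list summed to 449 to 503 at 6 h and 905 to 1017 at 24 h. The defining leukocyte markers PTPRC, CD3E, CD14 and TYROBP were below the filter on low signal. EPCAM, CDH1 and the claudins of the epithelial list, and CDH5, VWF and KDR of the endothelial list, were also below it. Of 5 epithelial markers tested, KRT7 rose 1.73-fold, but not in the mean of its probe sets (adjusted p = 0.186). KRT14 was below control on all arrays at 24 h, at least 1.80-fold lower. The summed signal of the 5 was 656 to 788 at 6 h and 799 to 958 at 24 h. The part of such cells in the results was not tested. The line is labelled as liposarcoma. Its mesenchymal marker VIM was high at both times (28214 ± 699.7 and 29099.9 ± 4074; SD, n = 3 each) and did not pass the test, and THY1, near the control probe sets, did not pass either.

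**Figure D5:**
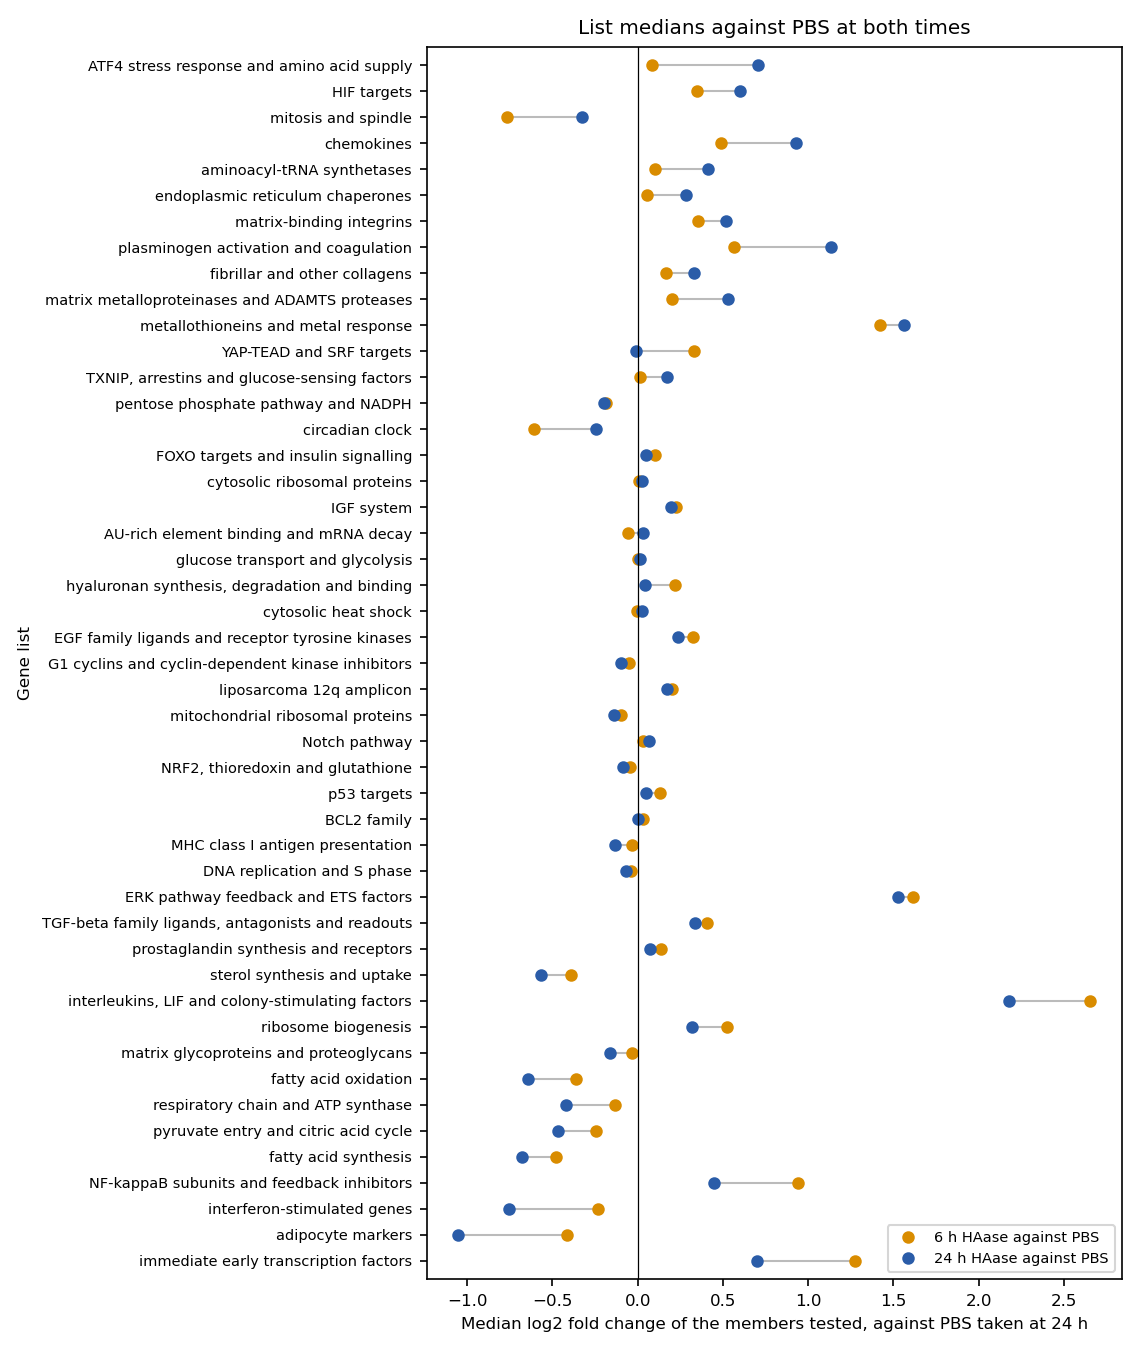
Median log2 fold change against PBS of the tested members of each gene list, at 6 h (orange) and at 24 h HAase (blue), ordered by the 24 h against 6 h difference; both times are set against the same 3 PBS arrays, taken at 24 h, and the values are a description. Medians of ATF4 genes move from 0.08 to 0.71 and those of adipocyte markers from -0.42 to -1.05, while those of immediate early factors come down from 1.28 to 0.70.

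JUN, JUNB, DUSP6, ETV4, NFKBIA, NFKB1, CXCL2, CXCL3, IL1B, IL11, TIMP1, TIMP3, TNFAIP6, P4HA3, PPARG, FABP4, ACSL1, ATF4, TRIB3, CHAC1, PHGDH, SLC38A1, VEGFA, AURKA, CCNB1, CCNB2, CDK1, OAS1, IFI27, BST2, ISG20, IFIT2, COX7B, ATP5F1B and BMAL1 lie outside the rule for named genes and were chosen after their values were seen. In all, 94 list entries had no probe set with that symbol alone and 77 were below the filter on low signal, and these are not analysed here.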

How the data were processed

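Gene expression was measured with Affymetrix Human Genome U133 Plus 2.0 arrays, 1 per sample. The authors deposited 1 linear intensity for each probe set, which the series design text says was taken from CHP files. The sources used here do not name the algorithm. The mean after trimming 2% at each end was 500.07 to 500.075 on every array. Of 54675 probe sets, 41091 had 1 gene symbol in the platform annotation, 1801 several and 11721 none (not named here). Signals were used as log2(signal + 16). Each of 19775 genes was read from the probe set whose 9-array mean of log2(signal + 16) was highest, and genes below the 30th percentile of that mean (a signal of 32.2) were left out, which left 13842. With limma 3.58.1 (R 4.3.3; lmFit, eBayes), 1 mean for each of the 3 groups was estimated from the 9 arrays together, with Benjamini-Hochberg adjustment over all genes and a threshold of 0.05. The fit was tested on simulated data with far fewer genes changed than were called here. Of simulated log2 changes of 0.5, 1 and 2, it recovered 55.2%, 77.6% and 93.9% (67, 67 and 66 genes). Of the genes called there, 3.82% were false. A gene that did not pass may therefore still differ. Adjusted p-values are from the limma fit to the arrays, save those of the alternative settings and those marked as over probe sets. The latter come from the same model fitted to all probe sets that are not controls. The 3 comparisons share arrays, so their values are given side by side only. For 3 arrays against 3 the smallest two-sided permutation p is 0.1. Precision is limited by the number of arrays.

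Groups were taken from the sample titles. Replicate numbers did not pair the samples: deviations of same-numbered arrays correlated at 0.01, -0.05 and 0.04. The members and gene lists were chosen with earlier results of these data known. Named genes were the 15 largest rises and 15 largest falls that passed with no overlap between arrays, up to 4 members of each list by size of change, and a listed set (ADIPOQ, ARRDC4, CCL20, CCND1, CD44, CEBPA, CXCL8, EGR1, FOS, HAS2, HAS3, HK2, IL24, IL6, LIF, MMP1, MMP3, MYC, PLIN1, SLC2A1, SLC2A3, TXNIP and ZFP36). Some genes outside this rule, chosen after their values were seen, are also given, mostly as further list members. Promoters came from a RefSeq table (GRCh38.p14) that held 11166 of the tested genes; where a gene had several, the first listed was used. The alternatives changed the pseudocount, array scaling, filter, probe set rule, variance prior, arrays fitted and replicate block, and left out each array.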

Additional observations from a re-analysis of the deposited data

How the results depend on the processing

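Of 4567 genes called between 24 h and 6 h, the 16 alternatives called 3238 (mean of all probe sets of a gene) to 5051 (trend and robust variance). Leaving out each of the 6 arrays in turn gave 3718 to 3976, with 2153 to 2315 higher and 1535 to 1666 lower. With the mean of all probe sets, 1808 genes were higher instead of 2731. With equal array medians 4344 were called, 49.2% of them higher instead of 59.8%, and against PBS 3136 genes were higher at 6 h instead of 2073 and 2387 lower instead of 3790. The replicate block called 4117 genes; the replicate numbers did not pair the samples. Under the mean of all probe sets, PGD reversed to a log2 difference of 0.0094 and lost its call (limma adjusted p = 0.983). A further 24 of the 235 named genes, some of which had no call to lose, also lost theirs. Of 1020 counts of list members, 938 stayed within 1.5 times the reported count and 82 moved. The list counts without each array were chosen after seeing the data. The causes were not tested. Signal near the level of the control probe sets limits the lowest genes, for which only bounds are given.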

Other observations

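Probe sets without a single gene symbol entered no comparison above. Of 4695 without a symbol that were above the filter on signal, 207 were higher and 155 lower at 24 h than at 6 h (limma adjusted p over probe sets under 0.05), 7.71% of them. Of 1254 with several symbols, 74 were higher and 78 lower, 12.1% of them. These calls come from a separate limma fit, adjusted over all probe sets that are not controls. The shares are therefore not comparable with those given for genes.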
